A study of Arabidopsis thaliana with 28 samples.

Results

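The BGLU genes of Arabidopsis thaliana encode beta-glucosidases of glycoside hydrolase family 1. They were taken here as genes whose symbol is BGLU followed by digits, with a probe set of the ATH1 array annotated to that gene alone and a mean signal of at least 28 over the 7 groups of samples. Of 40 genes with such a symbol in the annotation of assembly TAIR10.1, 20 had a one-gene probe set among the 22746 probe sets other than controls. Of these 20 genes, 8 reached the minimum and 12 lay below it. The 8 members were BGLU44 (AT3G18080), BGLU40 (AT1G26560), BGLU16 (AT3G60130), BGLU25 (AT3G03640), BGLU42 (AT5G36890), BGLU15 (AT2G44450), BGLU47 (AT4G21760) and BGLU33 (AT2G32860). One probe set shared by BGLU21 and BGLU22 was not used.

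The samples were leaves of Col-0 plants kept in a growth room under a light period of 10 h, in a series titled as low light at ambient CO2. Mature leaves were taken at 24 h with 2 replicates, and developing leaves of insertions 19 to 21 were taken at 2, 4, 12, 24, 48 and 96 h of treatment with 4 replicates each. All groups share the Col-0 background and the treatment named in the title, and no untreated array is used here, so the comparisons are between times or between leaf ages and give no effect of low light itself. The treatment notes carry letters (AS or ES) that the sources used here do not explain, and these sources do not state the clock time of sampling. The labels do not say that replicates came from separate plants, so the p-values rest on the spread between these arrays, which may be technical. The number of arrays limits the precision.

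Family 1 glucosidases cut a sugar from a stored glucoside with a pair of glutamate residues in the active site. In plants many of their substrates are inactive stores, among them defence compounds, hormone conjugates, flavonol glycosides and the glucosides of lignin precursors. The release of the free compound is then set by where enzyme and substrate meet. The myrosinases, which break down glucosinolates in leaves of the cabbage family, belong to the same enzyme family.

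Some members have a known role. BGLU15 hydrolyses flavonol bisglycosides. BGLU42 acts in roots, where it takes part in the release of scopoletin under iron deficiency and in induced systemic resistance. BGLU33, also called BG2, is a vacuolar enzyme that frees abscisic acid from its glucose ester. BGLU47 falls in the same branch of the family as the monolignol glucosidases BGLU45 and BGLU46, and BGLU44 cuts mannosides in vitro.

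Levels are MAS5 signals, a scaled linear intensity that has no unit and cannot be compared between probe sets. Group values are means ± SD, with n = 2 for mature leaves and n = 4 for every time of developing leaves. A log2 change is that of the signal plus 10 and stands with its SE. A fold is 2 to the power of that log2 change, so it differs from the ratio of the printed means. Each test is limma's two-sided moderated test, called at an adjusted p (Benjamini-Hochberg over 13647 probe sets) below 0.05. Of the 8 members, 7 passed the filter on low signals that precedes the test, which lies at a signal of 27.8. BGLU33 did not pass and was fitted without that filter. No fold is given where a group mean lies under 27.8.

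The mean over the 7 groups was 708 for BGLU44, 236 for BGLU40, 174 for BGLU16, 124 for BGLU25, 122 for BGLU42, 55 for BGLU15, 36.8 for BGLU47 and 33.9 for BGLU33. BGLU33 reached the minimum only through mature leaves, since its mean over the 6 developing groups was 23.5. The gene just outside was BGLU28, at 18.6.

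Across the arrays, the medians ran from 40.8 to 48.1 and the 2% trimmed mean was 100. Of 50 marker genes listed for 9 cell types, 4 had a one-gene probe set. RCA, the Rubisco activase of mesophyll, had signals of 4545 to 5011 in mature leaves and 2226 to 5049 in developing leaves, so this leaf marker was strong in every replicate. The guard cell factor FMA ran from 40.2 to 50.3 in mature leaves and from 38.8 to 73 in developing leaves. PYK10, which marks roots and ER bodies and is itself a family 1 glucosidase, ran from 9.78 to 13.8 in mature leaves and from 14.8 to 62.3 in developing leaves. The meristem gene CLV3 ran from 1.9 to 2.68 in mature leaves and from 1.57 to 4.17 in developing leaves. No marker of myrosin cells, epidermis, phloem, xylem or trichomes had a one-gene probe set, so those cells were not examined. The log2 ratio of the 3' over the 5' actin control, a measure of RNA quality, averaged 2.56 ± 0.505 after 2 h, 2.47 ± 0.543 after 4 h, 1.76 ± 0.347 after 12 h, 1.87 ± 0.175 after 24 h, 2.05 ± 0.438 after 48 h and 1.8 ± 0.516 after 96 h. It averaged 1.67 ± 0.742 in mature leaves. Its part in the differences of the later groups from 2 h was not tested.

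The 6 times in developing leaves show when each gene was high or low. The clock time of sampling is not stated, so hours of treatment and time of day cannot be told apart within the first 24 h. All 7 tested members changed over time in the moderated F test of limma, against 57.7% of all probe sets tested. The F statistic was 90.9 for BGLU40 (adjusted p = 6.15e-14), 55.8 for BGLU44 (1.18e-11), 14.8 for BGLU25 (3.68e-06), 13.6 for BGLU42 (7.36e-06), 11.4 for BGLU15 (2.86e-05), 5.51 for BGLU47 (0.00334) and 4.81 for BGLU16 (0.00679). They did not share one course. BGLU44, BGLU25 and BGLU42 had their highest mean after 4 h, BGLU15 after 12 h, BGLU16 after 2 h, BGLU40 after 48 h and BGLU47 after 96 h. In whole leaves, fewer cells of a type and less RNA per cell cannot be told apart.

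**Figure D1:**
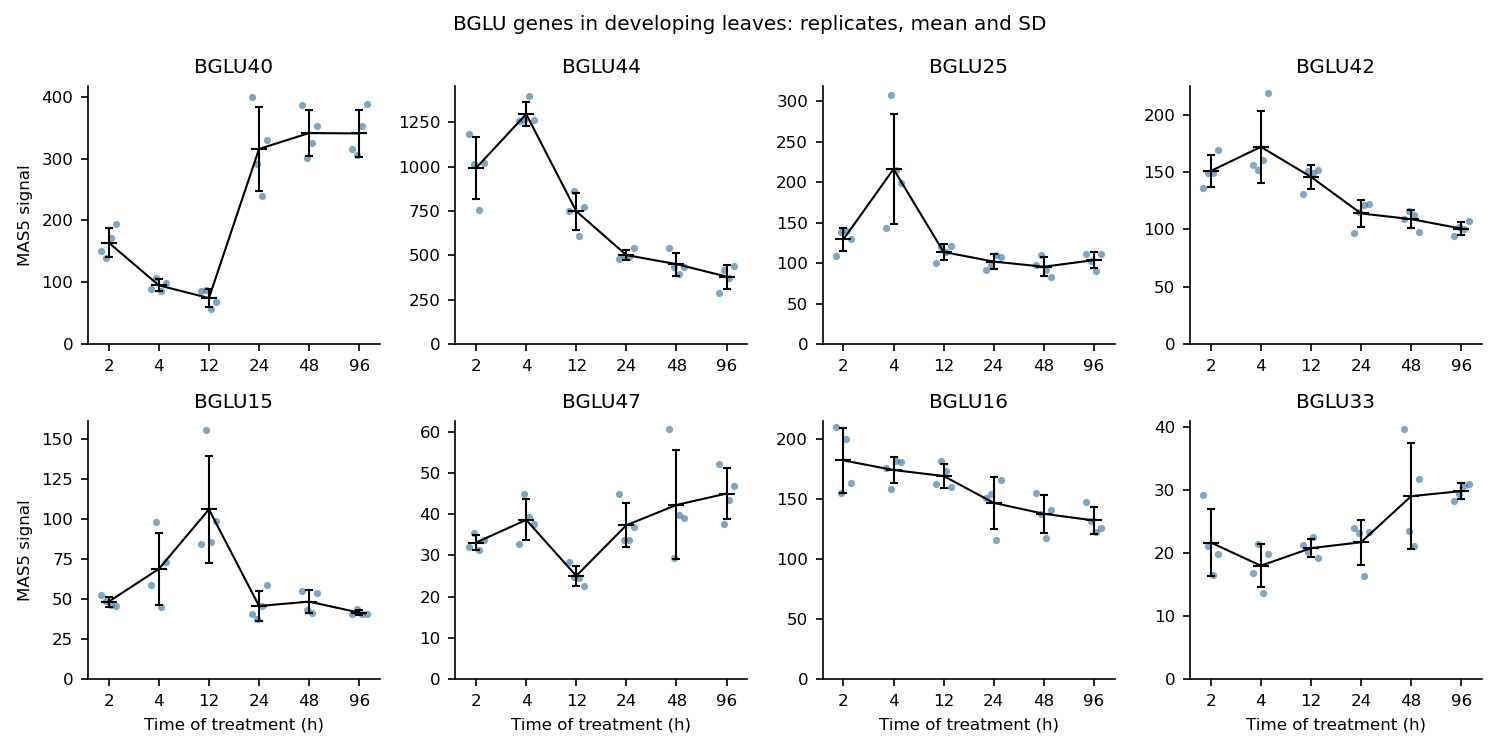
MAS5 signal of the 8 BGLU members (y axes start at 0 and differ between panels) in developing leaves by time of treatment in hours, with points for the 4 replicates and a line through the means ± SD. BGLU40 is lowest at 12 h with a mean of 74.6 and stands between 316 and 341 from 24 h on, while BGLU44 peaks at 4 h with a mean of 1296 and BGLU15 at 12 h with 106.

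BGLU15, the flavonol glycoside hydrolase, had signals of 52.7, 48.9, 46.1 and 45.8 in replicates 1 to 4 after 2 h, 58.8, 97.9, 45 and 73.4 after 4 h, and 84.6, 155, 85.4 and 98.6 after 12 h. It then had 40.5, 37.8, 45.7 and 58.7 after 24 h, 55.2, 43.4, 41.4 and 53.5 after 48 h, and 40.5, 44, 40.8 and 40.7 after 96 h. All 4 replicates at 12 h lay above every replicate at 2, 24, 48 and 96 h. The replicates after 4 h were spread, with 45 below the range after 2 h and 97.9 within that after 12 h.

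BGLU42, the root scopoletin glucosidase, had 136, 150, 149 and 169 after 2 h, 156, 152, 161 and 219 after 4 h, and 130.5, 151, 150 and 152 after 12 h. It had 96.5, 116, 121 and 122 after 24 h, 109, 116, 113 and 98 after 48 h, and 94, 102, 100.2 and 107 after 96 h. Every replicate from 24 h on lay below every replicate of the first 12 h.

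BGLU44 had 1182, 1013, 758 and 1018 after 2 h, 1260.3, 1261, 1399 and 1265 after 4 h, and 752, 862, 608 and 775 after 12 h. It had 479, 499, 490 and 540.5 after 24 h, 545, 433, 393 and 434 after 48 h, and 289, 418, 375 and 441 after 96 h. The replicates at 4 h lay above those of all the other times, and the ranges at 24 and 96 h did not overlap. The ratio of its highest to its lowest time, from the means of log2(signal plus 10), was 3.38.

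BGLU47, of the monolignol glucosidase branch, had 32, 35.5, 31.2 and 33.7 after 2 h, 32.8, 44.8, 39.2 and 37.7 after 4 h, 28.5, 24.7, 24.5 and 22.5 after 12 h, 45, 33.7, 33.8 and 36.8 after 24 h, 60.8, 29.3, 39.9 and 39 after 48 h, and 52.2, 37.7, 43.4 and 46.8 after 96 h. The replicates at 12 h were below those of every other time. One replicate at 48 h, at 60.8, stood above all the rest.

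For BGLU40, BGLU25 and BGLU16 no role is stated here. BGLU40 had 151, 140.1, 171 and 194 after 2 h, 88.6, 107, 86.4 and 98.3 after 4 h, and 85.3, 87.4, 56.9 and 69 after 12 h. It had 400.2, 291, 240.3 and 331 after 24 h, 387, 301, 325 and 352 after 48 h, and 316, 306, 353 and 388 after 96 h. The 3 later times lay wholly above 2 h, and 4 and 12 h wholly below it. The ratio of its highest to its lowest time, from the means of log2(signal plus 10), was 4.18, the largest among the 8 members.

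BGLU25 had 109, 139, 140.2 and 130 after 2 h, 144, 308, 215 and 199 after 4 h, and 100.5, 121, 114 and 121 after 12 h. It had 91.3, 98.4, 111 and 108 after 24 h, 97.4, 111, 91.8 and 82.9 after 48 h, and 111, 103, 90.2 and 111 after 96 h. Its 4 h replicates were the highest and also the most uneven, with a SD of 0.429 on the log2 scale there against 0.114 to 0.158 at the other times.

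BGLU16 had 210.1, 155, 199.5 and 163 after 2 h, 176, 158, 181 and 181 after 4 h, and 162, 181, 173 and 159.5 after 12 h. It had 151, 154, 116 and 166 after 24 h, 155, 137, 117 and 141 after 48 h, and 148, 132, 122 and 126 after 96 h. Its mean was lower at each later time, but the replicates of neighbouring times overlapped throughout. The ratio of its highest to its lowest time, from the means of log2(signal plus 10), was 1.34, the smallest of the 8 members.

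BGLU33, the abscisic acid glucose ester hydrolase, had group means of 21.7 ± 5.35 after 2 h, 18 ± 3.43 after 4 h, 20.8 ± 1.4 after 12 h, 21.7 ± 3.58 after 24 h, 29 ± 8.44 after 48 h and 29.8 ± 1.25 after 96 h. No replicate of developing leaves passed 39.7. In the fit without the filter, in which 36.2% of 22746 probe sets were called, its F test gave an adjusted p of 0.0313. That call ended when any of 6 replicates was left out, 2 of them after 4 h, 1 after 48 h and 3 after 96 h, with an adjusted p of up to 0.067.

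The comparison of 4 h with 2 h asks what moved between the first samplings. BGLU25 rose 1.58-fold, to 216 ± 68 at 4 h against 130 ± 14.2 at 2 h (log2 change 0.66 ± 0.143, adjusted p = 0.00745). BGLU40 fell to 95.1 ± 9.62 at 4 h, against 164 ± 23.8 at 2 h (log2 change -0.72 ± 0.137, adjusted p = 0.00189). The replicates of both times did not overlap for either gene. Thus 2 of 7 members were called, against 2.78% of all probe sets, with 1 rise against a background of 1.6% and 1 fall against 1.18%. The median log2 change of the members was 0.169, and that of all probe sets tested was -0.00713. With only these groups in the fit, BGLU25 lost its call (adjusted p = 0.0932), with a range of 0.000286 to 0.0932 over its 21 alternatives. BGLU44 had 1296 ± 68.6 at 4 h and 993 ± 175 at 2 h without overlap between replicates, but did not pass the test (log2 change 0.4 ± 0.13, adjusted p = 0.11). BGLU15 did not pass either (0.39 ± 0.178, adjusted p = 0.336).

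At 12 h against 2 h, BGLU15 rose 1.93-fold, to 106 ± 33.5 against 48.4 ± 3.19 at 2 h (log2 change 0.95 ± 0.178, adjusted p = 0.000102). BGLU40 fell to 74.6 ± 14.4, against 164 ± 23.8 at 2 h (-1.05 ± 0.137, adjusted p = 6.95e-07). BGLU44 fell to 749 ± 105, against 993 ± 175 at 2 h (-0.4 ± 0.13, adjusted p = 0.0169), with overlap between replicates, while those of BGLU15 and BGLU40 did not overlap. Of the 7 members, 1 was called higher and 2 lower, where 38.7% of all probe sets were called, 20.4% higher and 18.4% lower. The median log2 change was -0.169 over the members and 0.0268 over all probe sets tested.

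The fall of BGLU44 lost its call with quantile normalization (adjusted p = 0.0564), without 2 h replicate 1 (0.0758) or without 12 h replicate 3 (0.0875), within a range of 0.00231 to 0.0875 over 21 alternatives. BGLU47 had 25.1 ± 2.49 at 12 h and 33.1 ± 1.92 at 2 h, with no call (-0.3 ± 0.137, adjusted p = 0.0835). It gained one with quantile normalization (0.0495), median centring (0.0388) or array quality weights (0.0306).

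At 24 h against 2 h, BGLU40 rose 1.85-fold, to 316 ± 67.5 against 164 ± 23.8 at 2 h (log2 change 0.89 ± 0.137, adjusted p = 4.45e-05). BGLU44 fell to 502 ± 26.9, against 993 ± 175 at 2 h (-0.95 ± 0.13, adjusted p = 8.35e-06). BGLU42 fell to 114 ± 12, against 151 ± 13.7 at 2 h (-0.38 ± 0.108, adjusted p = 0.0197). The count of 3 of 7 stands beside 12.1% of all probe sets, with 1 rise against 5.85% and 2 falls against 6.29%. The median log2 change was -0.294 over the members and 0.0133 over all probe sets tested. BGLU42 lost its call with only these groups in the fit (adjusted p = 0.0523), without 24 h replicate 1 (0.0872) or without 2 h replicate 4 (0.0794), within a range of 0.00631 to 0.0872 over 21 alternatives.

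At 24 h against 12 h, BGLU40 rose 3.83-fold, to 316 ± 67.5 at 24 h against 74.6 ± 14.4 at 12 h (log2 change 1.94 ± 0.137, adjusted p = 5.25e-12). BGLU47 rose to 37.3 ± 5.29 at 24 h, against 25.1 ± 2.49 at 12 h (0.43 ± 0.137, adjusted p = 0.0124). BGLU15 fell to 45.7 ± 9.28 at 24 h, against 106 ± 33.5 at 12 h (-1.03 ± 0.178, adjusted p = 3.17e-05), a level close to that at 2 h. BGLU44 fell to 502 ± 26.9 at 24 h, against 749 ± 105 at 12 h (-0.56 ± 0.13, adjusted p = 0.000979), and BGLU42 fell to 114 ± 12 at 24 h, against 146 ± 10.3 at 12 h (-0.33 ± 0.108, adjusted p = 0.0143).

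The 2 rises and 3 falls stand beside 42.2% of all probe sets called, 20% higher and 22.2% lower. The median log2 change was -0.202 over the members and -0.00963 over all probe sets tested. Without 24 h replicate 1, which is the mean of a pair of arrays, 3 members were called: BGLU42 (adjusted p = 0.0654) and BGLU47 (0.0523) lost their calls. The comparisons of 24 h with 2 h and with 12 h share their 24 h samples.

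**Figure D2:**
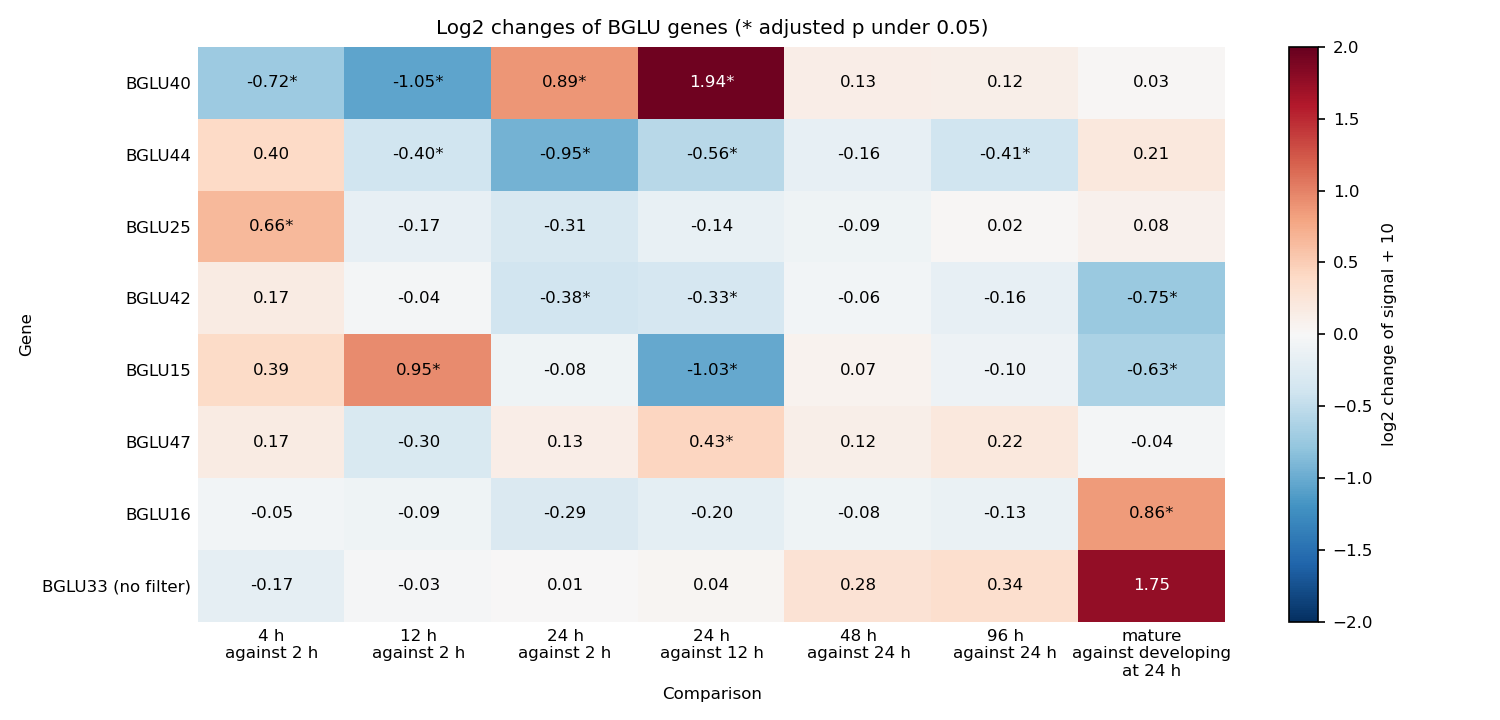
Log2 change of the signal plus 10 for the 8 BGLU members (rows) in 7 comparisons (columns), red where the first-named group is higher and blue where it is lower, with an asterisk where the adjusted p is below 0.05. BGLU40 spans -1.05 to 1.94 among the comparisons of times, no member is called at 48 h against 24 h, and BGLU33, from the fit without the filter, has 1.75 in mature leaves, a value given with no test.

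The times of 24, 48 and 96 h lie whole days apart. At 48 h against 24 h no member was called in limma (adjusted p = 0.999 for all 7), and 0 of 7 members had an unadjusted p below 0.05, as 716 of all probe sets tested did. The background was 0.0659% called, 0.0586% higher and 0.00733% lower. Log2 changes of the members ran from -0.16 ± 0.13 for BGLU44 to 0.13 ± 0.137 for BGLU40, and their median was -0.056, beside -0.00593 over all probe sets tested.

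At 96 h against 24 h, BGLU44 fell to 381 ± 67.1, against 502 ± 26.9 at 24 h (log2 change -0.41 ± 0.13, adjusted p = 0.0489). It was the 1 member of 7 called, beside 8.96% of all probe sets, 4.62% higher and 4.35% lower. The call was lost in 12 of 21 alternatives, with an adjusted p of 0.0301 to 0.212, and the highest came without 96 h replicate 1, which had the lowest signal. Among the other members BGLU47 had 45 ± 6.1 at 96 h and 37.3 ± 5.29 at 24 h (0.22 ± 0.137, adjusted p = 0.376). The median log2 change was -0.0985 over the members and -0.0152 over all probe sets tested.

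The comparison of leaf ages at 24 h set mature leaves against developing ones. The clock time of sampling is not stated. CCL, a clock-regulated transcript, had 2693 ± 165 in mature leaves and 137 ± 25.4 in developing leaves at 24 h. The part of sampling time in the differences below was not tested. BGLU33 had 97.2 and 95.5 in mature leaves, against 24, 23.2, 16.4 and 23.3 in developing leaves. BGLU16 had 322 and 229 in mature leaves, against 151, 154, 116 and 166 in developing leaves. Both genes were higher in each mature replicate than in any developing one, at 24 h and at all the other times. BGLU42 had 73.2 and 54.7 in mature leaves, against 96.5, 116, 121 and 122 in developing leaves. BGLU15 had 34 and 19 in mature leaves, against 40.5, 37.8, 45.7 and 58.7 in developing leaves. These last genes were lower in both mature replicates than in every developing replicate at any time.

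BGLU16 rose 1.81-fold, to 275 ± 66.1 in mature leaves against 147 ± 21.6 in developing leaves (log2 change 0.86 ± 0.143, adjusted p = 7.41e-06). BGLU42 fell to 64 ± 13.1 in mature leaves, against 114 ± 12 in developing leaves (-0.75 ± 0.133, adjusted p = 1.67e-05). BGLU15 fell to 26.5 ± 10.6 in mature leaves, against 45.7 ± 9.28 in developing leaves (-0.63 ± 0.218, adjusted p = 0.0138). The BGLU15 call rests on mature replicate 2, without which the log2 change was -0.33 and the adjusted p 0.32. It was also lost with replicates 1 and 2 of each group alone (adjusted p = 0.173). The 1 rise and 2 falls among 7 members stand beside 64.6% of all probe sets called in this comparison, 27.1% higher and 37.5% lower. The median log2 change was 0.03 over the members and -0.103 over all probe sets tested.

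BGLU33, outside that count, had 96.3 ± 1.21 in mature leaves and 21.7 ± 3.58 in developing leaves, a log2 change of 1.75. It is a member only through its signal in mature leaves, so this difference is a description and is given with no test. The remaining 4 members were not called. BGLU44 had 629 and 536 in mature leaves, against 479 to 540.5 in developing leaves (0.21 ± 0.159, adjusted p = 0.261). BGLU40 had 289 and 348 in mature leaves, within the developing range of 240.3 to 400.2 (0.03 ± 0.167, adjusted p = 0.889). BGLU25 (0.08 ± 0.175, adjusted p = 0.701) and BGLU47 (-0.04 ± 0.167, adjusted p = 0.867) also overlapped between leaf ages. BGLU40, with the largest F over time in developing leaves, had nearly equal means at both leaf ages. BGLU16, with the smallest F, was called higher in mature leaves. A relation between the F and the difference between leaf ages was not tested. PYK10, the marker of roots and ER bodies, was lower in both mature replicates than in any developing one, and its part in these differences was not tested.

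**Figure D3:**
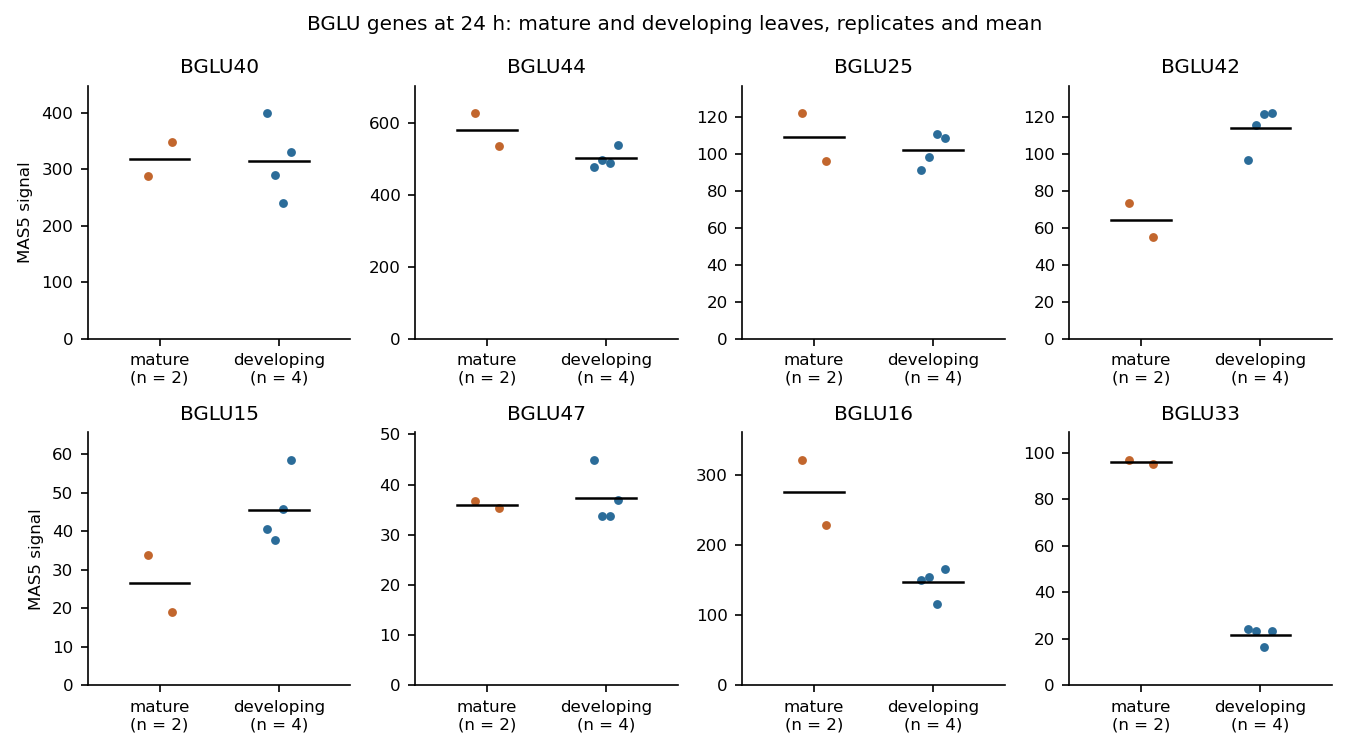
MAS5 signal of the 8 BGLU members at 24 h (y axes start at 0 and differ between panels) in mature leaves (orange, n = 2) and developing leaves (blue, n = 4), with a point for each replicate and a bar at the mean. BGLU33 and BGLU16 are higher in both mature replicates, BGLU42 and BGLU15 are lower, and the replicates of BGLU40, BGLU44, BGLU25 and BGLU47 overlap.

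The 12 genes below the minimum had means over the 7 groups of 18.6 for BGLU28, 13.1 for BGLU41, 11.6 for BGLU45, 10.4 for BGLU29, 9.96 for BGLU27, 8.48 for BGLU46, 7.04 for BGLU36, 5.2 for BGLU24, 4.4 for BGLU31, 3.88 for BGLU32, 3.4 for BGLU19 and 2.86 for BGLU43. In the fit without the filter 4 of them were called between leaf ages, where 45% of all probe sets were, and they are named here after their values were seen. BGLU46, a monolignol glucosidase, had 76.4 and 22.7 in mature leaves, against 1.8, 1.92, 5.85 and 1.05 in developing leaves (log2 change 2.08 ± 0.203, adjusted p = 4.5e-09). BGLU45, of the same function, had 35.6 and 26.7 in mature leaves, against 9.07, 4.74, 5.77 and 9.14 in developing leaves (1.26 ± 0.177, adjusted p = 1.51e-06). The ranges did not overlap for either gene, and both kept their calls over 10 alternatives, but the sizes of these changes depend on the added 10. With a pseudocount of 1 the log2 change was 3.71 for BGLU46 and 2.01 for BGLU45, and with 50 it was 0.865 for BGLU46 and 0.503 for BGLU45. The mature replicates of BGLU46 also differed widely, and its log2 change was 1.38 without replicate 1 of mature leaves and 2.79 without replicate 2. Its SE and adjusted p rest on a spread pooled over all groups, which does not measure that of the mature replicates alone.

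BGLU28, which takes part in glucosinolate breakdown under sulfur deficiency, had 5.88 and 10.6 in mature leaves, against 20.2, 17.5, 19.8 and 15.2 in developing leaves (-0.64 ± 0.192, adjusted p = 0.0079). BGLU27 had 19.5 and 15.8 in mature leaves, against 9.75, 12.5, 8.67 and 12.5 in developing leaves (0.41 ± 0.143, adjusted p = 0.0214). Without mature replicate 1 neither gene was called (adjusted p = 0.167 for BGLU28 and 0.208 for BGLU27). BGLU27 also lost its call without 24 h developing replicate 3 (0.0593) and with a pseudocount of 1 (0.119). Signals this low lie near background. Over the 6 times, the F test without the filter called BGLU43 (adjusted p = 0.0172) and BGLU27 (0.0495), the first with group means between 0.849 and 6.69, and BGLU27 lost that call in 21 of 28 alternatives.

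**Figure D4:**
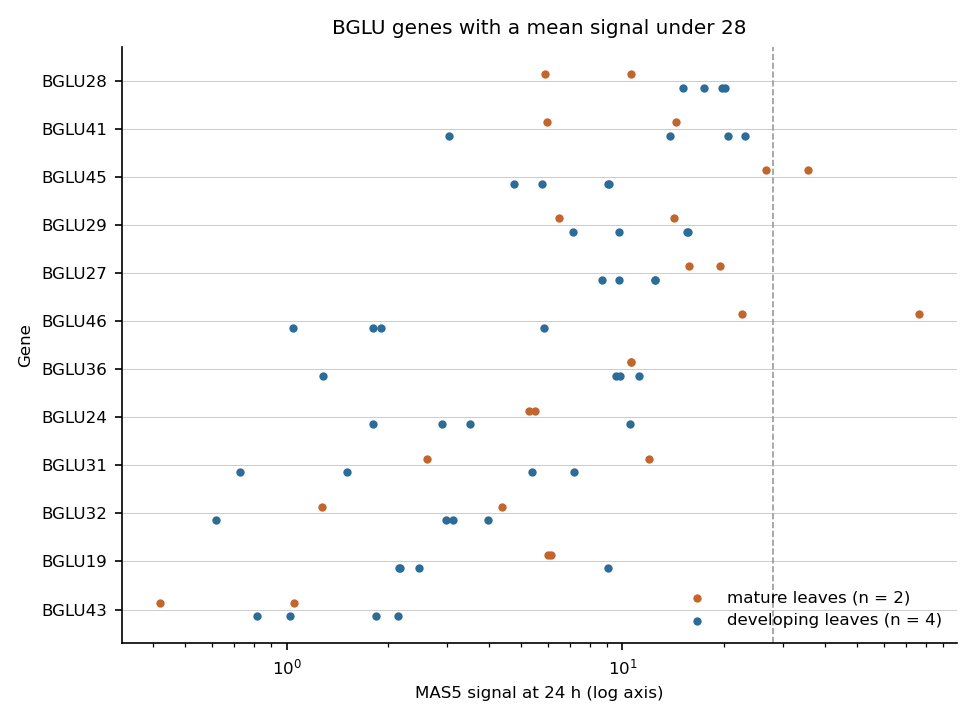
MAS5 signal at 24 h (log axis) of the 12 BGLU genes with a mean below 28 (dashed line), in mature leaves (orange, upper row of each gene, n = 2) and developing leaves (blue, lower row, n = 4), with a point for each replicate. BGLU46 and BGLU45 are higher in both mature replicates than in all developing ones, and BGLU46 reaches 76.4.

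Some members lie beside other genes of the family. On chromosome 3, BGLU44 and BGLU43 have no protein-coding gene between them, and neither have BGLU16 and BGLU27 or BGLU16 and DIN2 (BGLU30). On chromosome 2, BGLU15 lies next to BGLU28, with 1 gene between it and BGLU29, 2 before BGLU17 and 3 before PEN2, a glucosidase of indole glucosinolate breakdown. Of these neighbours, BGLU16 and BGLU27 were both higher in mature leaves than in developing leaves at 24 h. BGLU15 and BGLU28 were both lower, with the limits given above for BGLU15, BGLU27 and BGLU28. The filtered fit called 27.1% of the tested probe sets higher and 37.5% lower in this comparison. BGLU27 and BGLU28 were tested only without the filter, where 45% of 22746 probe sets were called. BGLU29 had 10.3 ± 5.45 in mature leaves and 12 ± 4.27 in developing leaves and was not called (log2 change -0.12, adjusted p = 0.693 without the filter). BGLU43 was not called either and had a signal of at most 2.15 in the replicates of either leaf age at 24 h.

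The courses most like those of the 3 members with the largest F were sought by Pearson r over the 26 replicates, as a description. The 7434 named probe sets searched include the member's own, which was not ranked. All genes are read on the same arrays and the replicates fall into groups, which alone gives high values. For BGLU40 the most alike were AT5G15950 (r = 0.963), AFR (0.956), an F-box protein of far-red light signalling, and AT5G47550 (0.947). AT5G15950 had means of 174, 82.9, 48, 385, 379 and 444 over the 6 times and 296 in mature leaves, with its lowest mean at 12 h as for BGLU40. For BGLU44 they were PORB, a protochlorophyllide oxidoreductase of chlorophyll synthesis (0.977), AT1G67660 (0.915) and AT2G39920 (0.909). PORB had means of 1810, 3056, 1511, 834, 673 and 579 over the 6 times and 1026 in mature leaves, with its highest mean at 4 h as for BGLU44. For BGLU25 the values were lower, at 0.781 for AT4G17100, 0.778 for PORB and 0.765 for UGT80B1.

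Genes that make, move or respond to compounds of these enzymes were described from 12 lists. Most symbols of each list had no one-gene probe set, so the counts below cover a small part of each list. Of 15 symbols in the flavonol glycoside list, 3 had a tested probe set. All 3 fell at 12 h against 2 h, rose at 24 h against 2 h and against 12 h, and fell in mature leaves. Their median log2 change was -2.9 in mature against developing leaves. Beside these counts, 18.4% of all probe sets were called lower at 12 h, 5.85% higher at 24 h against 2 h, 20% higher at 24 h against 12 h and 37.5% lower in mature leaves. CHIL alone fell at 4 h against 2 h, a call lost in 7 of 21 alternatives (adjusted p of 0.00894 to 0.153). UGT78D1, a flavonol rhamnosyltransferase, fell to 140 ± 21 at 12 h, against 196 ± 10 at 2 h (-0.47 ± 0.155, adjusted p = 0.016). It fell to 37.2 ± 1.83 in mature leaves, against 344 ± 42.6 in developing leaves (-2.9 ± 0.189, adjusted p = 3.01e-13). BGLU15, by contrast, rose at 12 h and fell at 24 h against 12 h. Its fall in mature leaves rests on mature replicate 2 (adjusted p = 0.32 without it). UGT78D2 had 75.7 ± 0.921 in mature leaves, against 246 ± 36.6 in developing leaves, and CHIL, a chalcone isomerase-like protein, had 12.3 ± 11.2, against 340 ± 57.1. Among the changes over time, UGT78D2 lost its call at 24 h against 2 h in 9 of 21 alternatives and at 12 h against 2 h in 3, and UGT78D1 lost that at 12 h in 1.

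On abscisic acid, the 1 tested gene of its level, UGT71C5, makes the glucose ester that BGLU33 cuts. It rose 1.76-fold at 12 h, to 96.6 ± 3.78 against 50.9 ± 7.89 at 2 h (adjusted p = 4.04e-05), and fell to 47.3 ± 11.8 at 24 h, against 96.6 ± 3.78 at 12 h (adjusted p = 6.85e-06). In mature leaves it rose 1.51-fold, to 75 ± 0.709 against 47.3 ± 11.8 in developing leaves (adjusted p = 0.00412, and 0.0991 with replicates 1 and 2 of each group alone). Of 16 symbols listed for abscisic acid response, 2 were tested. Both rose in mature leaves, where 27.1% of all probe sets were called higher, with a median log2 change of 1.88. COR47 had 663 ± 137 in mature leaves, against 194 ± 25.5 in developing leaves. COR15A had 342 ± 171, against 70.3 ± 8.05 in developing leaves, and its mature replicates differed widely. COR15A was also higher at 4 h, with 219 ± 56.1 against 102 ± 24.2 at 2 h (adjusted p = 0.00238).

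Of 4 monolignol genes with a one-gene probe set, 2 passed the filter. HCT, an acyltransferase of lignin synthesis, rose 1.83-fold at 24 h, to 756 ± 50.8 against 410 ± 37.9 at 2 h, rose against 12 h too, and rose 1.23-fold in mature leaves, to 933 ± 21.1 against 756 ± 50.8 in developing leaves (adjusted p = 0.0423). That last call was lost in 11 of 20 alternatives, the replicate block among them, with an adjusted p of up to 0.188. UGT72E2 was called in none of the 7 comparisons, with 51.7 ± 1.63 in mature leaves and 34.1 ± 5.91 in developing leaves. UGT72E1, a monolignol glucosyltransferase below the filter, had 195 ± 29.8 in mature leaves, against 7.72 ± 2.4 in developing leaves. Its adjusted p was 3.41e-09 in the fit without the filter, which called 45% of all probe sets. BGLU45 and BGLU46 also had higher signals in mature leaves. UGT72E3, also below the filter, had 2.04 ± 1.21 in mature leaves and 1.7 ± 0.412 in developing leaves (adjusted p = 0.738 without the filter).

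Of 33 symbols listed for glucosinolate synthesis and transport, 5 had a one-gene probe set and 4 passed the filter. All 4 rose in mature leaves, where 27.1% of all probe sets were called higher, with a median log2 change of 1.1. AOP3, below the filter, had 17.5 ± 1.25 in mature leaves and 19.3 ± 4.96 in developing leaves (adjusted p = 0.848 without the filter). BCAT4, of methionine chain elongation, had 1426 ± 90.6 in mature leaves, against 79.2 ± 27.1 in developing leaves (log2 change 4.06 ± 0.274, adjusted p = 5.94e-13). The transporter gene GTR1 rose 2.25-fold, to 483 ± 1.17 against 211 ± 29.8, while UGT74B1 rose 2.03-fold and GTR2 1.53-fold, the last without a call when mature replicate 1 was left out (adjusted p = 0.0939). Over time, 1 gene rose and 2 fell at 12 h against 2 h, and 3 rose and 1 fell at 24 h against 12 h, beside 38.7% and 42.2% of all probe sets called in these comparisons. GTR2 was the gene that moved the other way, with 235 ± 35.2 at 12 h and 152 ± 29.7 at 2 h.

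The ER body, a store of the glucosidase PYK10, had 3 tested genes. NAI2 fell to 18.4 ± 4.88 in mature leaves, against 67.4 ± 16.9 in developing leaves (-1.43 ± 0.239, adjusted p = 7.74e-06). Between leaf ages, 27.1% of all probe sets were called higher and 37.5% lower. JAL34 rose at 12 h and at 24 h against 2 h, with calls lost in 1 and 3 of 20 alternatives. There 20.4% and 5.85% of all probe sets were called higher. JAL23 rose at 24 h against 12 h, where 20% of all probe sets were called higher. It fell at 96 h against 24 h (adjusted p = 0.0394), where 4.35% were called lower, the fall being lost in 9 of 20 alternatives. Of 3 tested jasmonate genes, MYC3 rose at 12 h, to 151 ± 22.7 against 85.7 ± 6.77 at 2 h, and fell at 24 h against 12 h. Beside these, 20.4% of all probe sets were called higher at 12 h and 22.2% lower at 24 h against 12 h. MYC4 and PDF1.2 were called in none of the 7 comparisons, but MYC4 changed over the 6 times in the F test (adjusted p = 0.000382). Both tested genes of the clock list rose at 4 h, where 1.6% of all probe sets were called higher. GI rose to 176 ± 8.32 against 69.3 ± 6 at 2 h. CCL, a transcript regulated by the clock rather than part of it, rose to 1807 ± 166 against 770 ± 163 at 2 h. At 12 h against 2 h, where 38.7% of all probe sets were called, CCL rose and GI fell. At 24 h against 12 h, where 42.2% were called, GI rose and CCL fell. At 24 h against 2 h, where 12.1% were called, both fell, GI with a call lost in 6 of 20 alternatives. Both rose in mature leaves, CCL to 2693 ± 165 against 137 ± 25.4 in developing leaves and GI to 78.1 ± 11.4 against 50.7 ± 10.5, where GI lost its call without mature replicate 1 (adjusted p = 0.0678). Among 13 other names of family 1 glucosidases, the 1 tested was a synonym of BGLU25, with PYK10 at 26.9 and ATA27 at 1.29 over the 7 groups below the filter. The lists of glucosinolate breakdown (21 symbols), dark-inducible genes (10) and sulfur deficiency (20) had no one-gene probe set.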

How the data were processed

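Total RNA of 28 leaf samples was hybridised to ATH1 arrays. Per the submitters' processing notes, the intensity deposited by the authors is a MAS5 signal, on a linear scale. The sources used here name no version of MAS5, and no detection call was used. Genes were named from the platform annotation and from RefSeq (TAIR10.1), and the files name no genome build, so no coordinates are given.

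The labels gave 7 groups. The arrays both titled 24 h replicate 1 (r = 0.9811) were averaged on the log2 scale, leaving 26 replicates of 27 arrays. An array noted as ES at 4 h has an unclear group and was left out. Signals plus a pseudocount of 10 were taken as log2, probe sets with a mean above the 40th percentile (signal 27.8) were kept, and all groups were fitted with limma 3.58.1 in R 4.3.3 (lmFit, eBayes with trend, 19 residual degrees of freedom). The steps were tested on simulated data. Summaries used Python 3.11.15.

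All members are named, with each replicate's value where a test passed. Each list names up to 4 genes of highest mean, some of them below the filter, and that of glucosinolate synthesis also names AOP3. The probe set with the highest mean stands for a gene. The members and lists were chosen with earlier results of these data known. As alternatives, the results of the tested members were recomputed with a replicate block, with a pseudocount of 1 or 50, without the filter or with it at the 60th percentile, with median centring or quantile normalization, with array weights, with only the compared groups, without the trend, with other uses of the paired 24 h arrays, with replicates 1 and 2 alone for the leaf ages, and with each replicate left out. For genes fitted without the filter only the pseudocounts, both normalizations and each replicate left out were tried, chosen after seeing the data.

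Residuals of same-numbered replicates correlated above 0.1 in all 4 pairs only at 48 h against 24 h (0.6192, 0.1705, 0.2607 and 0.1297). Some differently numbered replicates did so there too, up to 0.2049, and only replicate 1 stood apart. These values do not establish that the numbers pair the samples. The labels state no pairing.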

Additional observations from a re-analysis of the deposited data

Results flagged for a closer look

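Of 48 groups of 4 replicates examined over the 8 members, 5 had 1 replicate far from the others by Dixon's ratio, where chance gives about 1 in 20. BGLU44 at 4 h had a highest replicate of 1399, with the others between 1260.3 and 1265. BGLU42 at 4 h had a highest replicate of 219, with the others between 152 and 161. BGLU42 at 12 h had a lowest replicate of 130, with the others between 150 and 152. BGLU15 at 96 h had a highest replicate of 44, with the others between 40.5 and 40.8. BGLU33 at 24 h had a lowest replicate of 16.4, with the others between 23.2 and 24.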

How the results depend on the processing

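The number of arrays, above all the 2 of mature leaves, and signals near background limit these results. The count of members called was 2 at 4 h against 2 h, and 1 with only the compared groups in the fit. It was 5 at 24 h against 12 h, 3 with the filter at the 60th percentile, and 3 to 5 with a replicate left out. At 96 h against 24 h it was 1, and 0 with a pseudocount of 1 or 50, no filter, only the compared groups, eBayes without trend, the second 24 h replicate 1 array alone, or no filter and no minimum mean (added after seeing the data). There it was 0 to 1 with a replicate left out. Between leaf ages it was 3, and 8 of 20 genes with no filter and no minimum mean, where 45% of all probe sets were called. Of these genes, 4 lie below the minimum. BGLU33, whose difference is otherwise given with no test, lies below the filter. The filter at the 60th percentile tests fewer members; for the other changes the cause was not tested. With a replicate block the counts were 2, 3, 3, 5, 0, 1, 3 and 7, as without it. Of 1265 values of single members under alternatives, 1239 kept their direction or their lack of a call, 23 lost a call, 3 gained one and 0 called changes turned sign. Among 32 uncalled changes, 8 crossed 0 in at least 1 alternative.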

Other observations

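The array noted as ES at 4 h, which belongs to no group here, had signals of 1254 for BGLU44, 97.8 for BGLU40, 203 for BGLU16, 130 for BGLU25, 152 for BGLU42, 94.9 for BGLU15, 33.7 for BGLU47 and 23.1 for BGLU33. Of these, 4 lay within the range of the 4 h replicates (BGLU40, BGLU42, BGLU15 and BGLU47). BGLU25, called higher at 4 h than at 2 h with replicates of 144 to 308, was below that range on this array, and BGLU44 was just below its range of 1260 to 1399. BGLU16 and BGLU33 were above theirs.

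The arrays both titled 24 h replicate 1 gave 368 and 435 for BGLU40, 474 and 484 for BGLU44, 47.6 and 34.4 for BGLU15, 103 and 90.1 for BGLU42 and 41.1 and 49.2 for BGLU47. The 24 h replicates of BGLU15 ran from 37.8 to 58.7.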
